A study of Mus musculus with 18 samples.

Results

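The first day of culture of mouse intestinal organoids was described by comparing 3 libraries of day 1 with 3 libraries of day 0 across the transcriptome. A gene was tested when it reached at least 1 RPKM (a read count divided by gene length and by library depth) in at least 3 of these 6 libraries. Of 24116 genes in the deposited table, 10669 met this rule, and these 6 libraries are part of a course of 18 that runs to day 5. Among the genes tested, 70 were under 1 RPKM in all 3 libraries of day 0 and 156 in all 3 of day 1. Such genes passed only through the other day.

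The organoids, which are epithelial structures grown from intestinal stem and progenitor cells, were from wild-type C57BL/6 mice with a labelled age of 8 weeks. Each library pooled 30 wells, and messenger RNA libraries were sequenced. Between the 2 time points the culture received medium with EGF at 100 ng/ml, Noggin at 100 ng/ml and R-spondin at 500 ng/ml. To this were added 20% Wnt3a-conditioned medium, the ROCK inhibitor Y-27632 at 10 µM and the GSK3 inhibitor CHIR99021 at 3 µM. Before the course the organoids were kept in a commercial growth medium. The labels do not say how long day 0 material had been in the supplemented medium. Day and medium changed together and cannot be told apart. By the titles, the day 0 libraries came from mouse 1, 2 and 3, and those of day 1 from mouse 1, mouse 1 and mouse 3. Replicate 1 of both days was not treated with DNase and the other 4 libraries were.

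EGF, Noggin and R-spondin stand in for signals of the stem cell niche at the base of the intestinal crypt, and R-spondin amplifies Wnt signalling by protecting its receptors from turnover. CHIR99021 stabilises beta-catenin by blocking the kinase that marks it for destruction, and inhibition of ROCK lowers contraction by myosin and helps dissociated epithelial cells to survive. Dispersed intestinal epithelium is known to take on genes of the fetal gut and of wound repair before crypts and the separate cell lineages form again.

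The libraries are written d0r1 to d0r3 and d1r1 to d1r3, for day and replicate. Their implied depth was 44260000 to 53930000 reads, with 10343 to 10758 genes at 1 RPKM or more. Of 12 markers of the epithelium, 4 were called higher at day 1 and none lower (median -0.03). The higher count was 2 without d0r2, d0r3, d1r2 or d1r3. These markers summed to 2700 to 4430 RPKM at day 0 and to 5140 to 7710 at day 1. The 3 most abundant markers of the epithelium that were not called, Epcam, Cldn7 and Hnf4a, lay at 386 to 505, 267 to 394 and 164 to 341 RPKM. Of 12 markers of fibroblasts and smooth muscle, 1 was tested and their summed level was 1.73 to 6.69 RPKM at day 0 and 1.11 to 1.59 at day 1, with Dcn and Lum at 0 in all 6 libraries. The 12 immune markers summed to 4.5 to 5.85 and 4.27 to 5.03 RPKM, with Cd3g, Ms4a1 and Adgre1 at 0. The 8 endothelial markers summed to at most 0.427 RPKM, with Kdr, Cdh5 and Emcn at 0. The 9 markers of neurons and glia summed to 2.36 to 4.16 and 1.25 to 1.77 RPKM, with Sox10 at 0, and of the red blood cell markers Hba-a2 and Hbb-bs were at 0. Library d0r1 stood apart. Its correlation with the other libraries of its day across the tested genes was 0.95 and 0.949, against 0.984 between those libraries. The stem cell receptor gene Lgr5 was at 1.33 RPKM in it against 28.3 and 32, and Id1, a target of BMP signalling, at 190 against 9.92 and 20.6. Since the samples are bulk, fewer cells of a type and less RNA per cell cannot be told apart in any value given here.

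With limma on log2(RPKM + 1), 1045 genes were higher at day 1 (9.79% of those tested) and 1008 lower (9.45%), 2053 in all (19.2%), at a Benjamini-Hochberg adjusted p under 0.05. Of these, 373 rose and 331 fell by at least 2-fold on that scale. The median change of all tested genes was -0.003. The levels of the 2 days did not overlap for 1025 of the higher and 983 of the lower genes, against 4418 (41.4%) of all tested. The counts were 638 higher and 660 lower without d0r2, 670 and 635 without d0r3, 689 and 673 without d1r2, and 598 and 605 without d1r3. Without d0r1 they were 935 and 945, of which 783 and 805 were among the genes above. Within the DNase-treated libraries they were 1041 and 1106.

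The direction went with the level of a gene. Among 3171 genes with a mean under 5 RPKM, 140 rose and 475 fell. Among 410 genes at 100 RPKM or more, 94 rose and 21 fell. The genes called higher held 11.6% to 13.7% of the summed RPKM of a day 0 library and 21.7% to 27.0% of a day 1 library. Those called lower went from 8.35% to 10.3% down to 3.22% to 3.75%. The 10 most abundant entries changed with this. Mt1 and Mt2 stood among them in all 3 libraries of day 0 and in none of day 1, while Lgals4, Krt19 and Krt8 stood among them in all 3 of day 1 and in none of day 0.

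**Figure D1:**
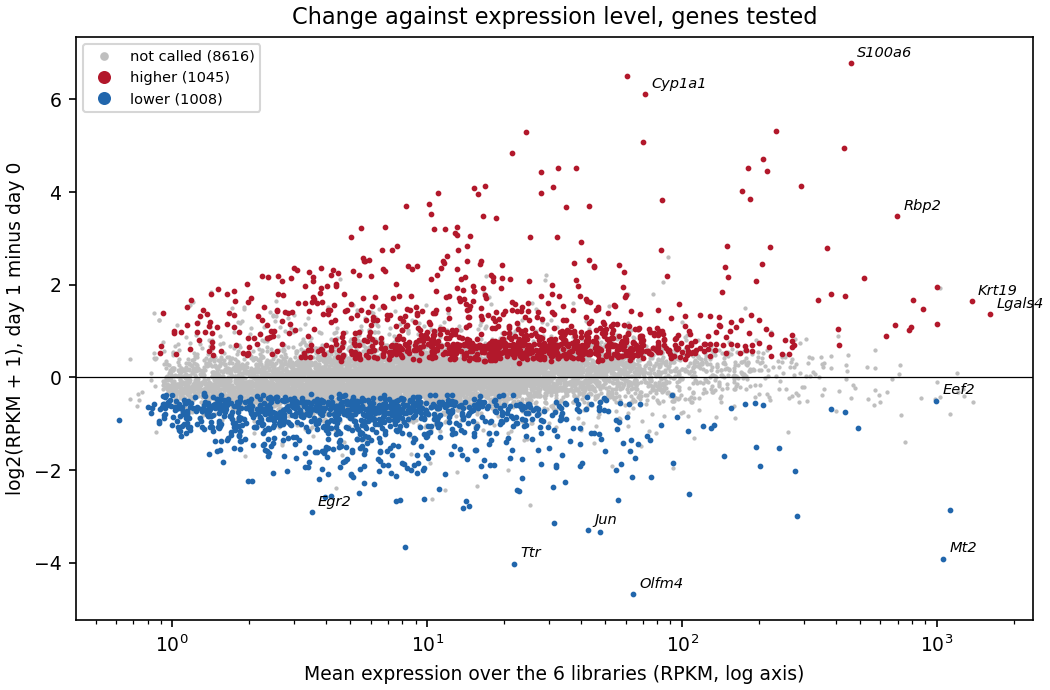
Change in log2(RPKM + 1) from day 0 to day 1 (y axis) against the mean RPKM of the 6 libraries (x axis, log scale) for 10669 genes. Red points are the 1045 genes called higher, blue points the 1008 called lower and grey points those not called. The lower calls lie more to the left and the higher calls more to the right.

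Of the 15 largest increases, 5 were markers of fetal or regenerating epithelium (S100a6, Msln, Anxa10, Ly6a and Anxa1). Of 14 tested genes of that list 11 rose and none fell (median 3.88), and 11 rose without d0r1. S100a6, a small calcium-binding protein, was at 30.2, 2.31 and 3.09 RPKM in the day 0 libraries and at 429, 1110 and 1180 at day 1. All 12 later libraries, to day 5, lay above the 3 of day 0. The change was 6.78 ± 0.91 (log2 change ± SE, adjusted p = 0.000193, limma), the largest increase by the naming rule. Msln, the surface protein mesothelin, was at 0.0506 to 0.135 RPKM at day 0 and at 55.2, 238 and 72.5 at day 1. Gprc5a, an orphan receptor induced by retinoic acid, was at 6.43, 0.471 and 0.756 and then at 38, 78.5 and 72.3 RPKM (4.51 ± 0.71, adjusted p = 0.000677). In S100a6 and Gprc5a, d0r1 was the highest of its day. Leaving it out ended none of these 3 calls.

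An alkaline phosphatase and a protease of the brush border, the absorptive surface of enterocytes, were among the 15 largest increases. Akp3, an alkaline phosphatase of the gut on chromosome 1 (87124954 to 87128728 in mm10), was at 14.6, 71.4 and 13.1 RPKM and then at 515, 792 and 1180 (4.96 ± 0.67, adjusted p = 0.000213). It is a near copy of Alpi, and how reads that match both were counted is not given in the sources used here. Mep1b, the beta subunit of the protease meprin, was at 2.53, 2.41 and 1.12 RPKM and then at 46.6, 52.5 and 124 (4.53 ± 0.60, adjusted p = 0.000172), and stayed above every day 0 library to day 5. Of 15 brush border hydrolases tested, Mep1b and Alpi were the only ones called, and none fell. That is 13.3% higher, against 9.79% of all tested genes. The median change of the list was -0.03. Sis, sucrase-isomaltase, was at 65.6 to 119 RPKM and then at 33.6 to 99.5 (adjusted p = 0.728), and Anpep, aminopeptidase N, at 71.9 to 166 and then at 42.2 to 134 (0.686).

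Akr1b8, an aldo-keto reductase that reduces reactive aldehydes, was at 10.2, 1 and 1.52 RPKM at day 0 and at 109, 102 and 196 at day 1 (5.09 ± 0.61, adjusted p = 8.53e-05). Zg16, a lectin of goblet cell granules that binds bacterial wall, was at 2.14, 0.652 and 0.924 RPKM and then at 17.8, 67.5 and 78.1 (4.44 ± 0.61, adjusted p = 0.000258). Of 14 goblet cell markers tested, 2 rose, 2 fell and 10 did not pass (median -0.02), and none fell without d0r3. That is 14.3% higher and 14.3% lower, against 9.79% and 9.45% of all tested genes. Measured in RPKM and not as a ratio, the largest gains were in Lgals4, Krt19, Rbp2, Krt8 and S100a6. Lgals4, a galectin of the enterocyte surface, was at 903, 948 and 849 RPKM at day 0 and at 1970, 2260 and 2750 at day 1. Rbp2, the retinol-binding protein of enterocytes, was at 105, 146 and 71.1 RPKM and then at 598, 1370 and 1900 (3.48 ± 0.69, adjusted p = 0.00294).

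**Figure D2:**
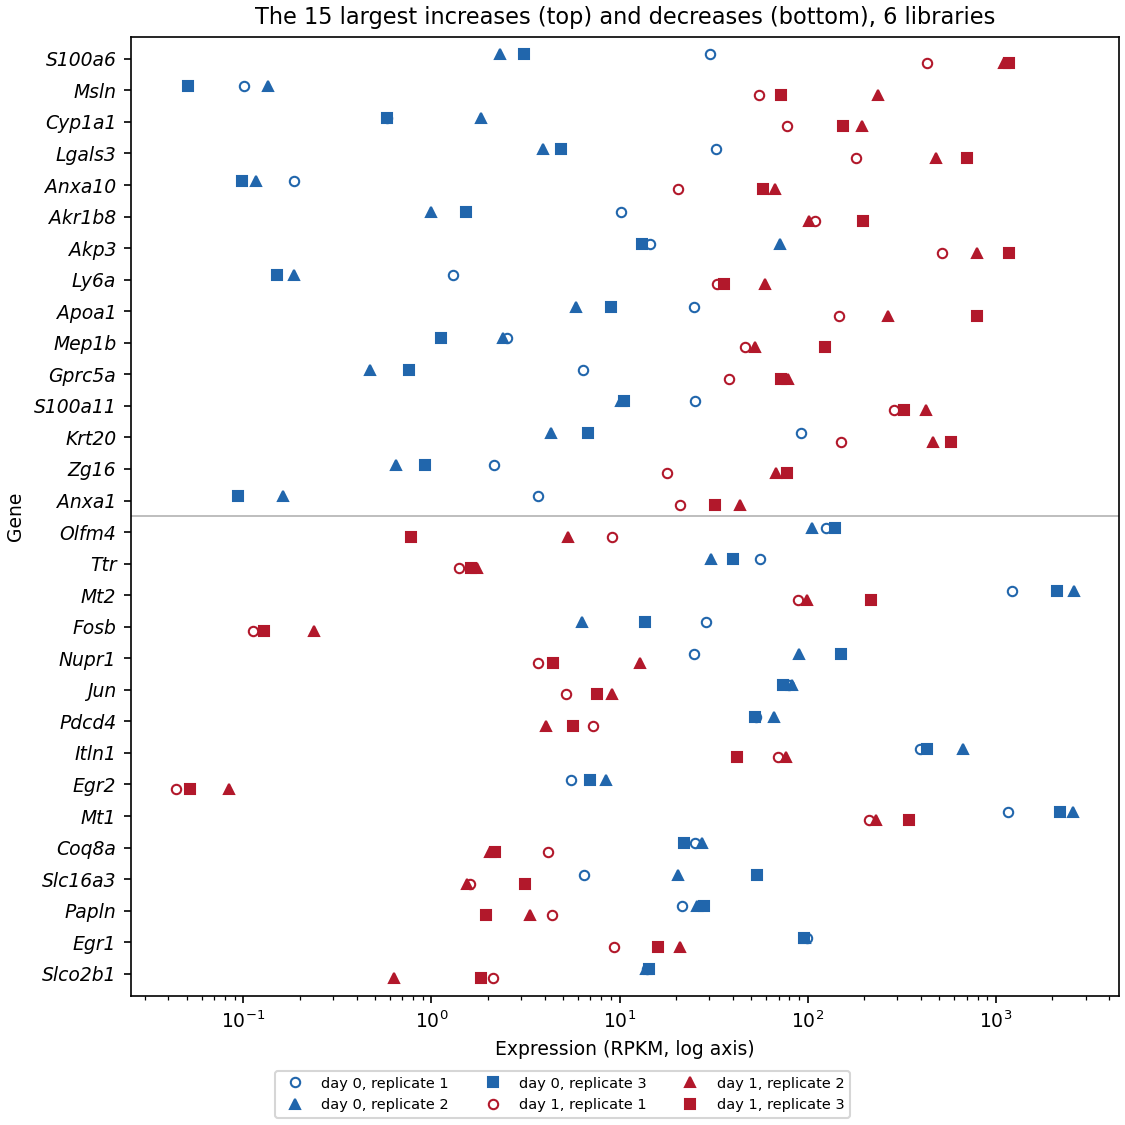
RPKM (x axis, log scale) of the 15 genes with the largest called increases and the 15 with the largest called decreases (y axis). Blue marks the 3 libraries of day 0 and red the 3 of day 1, with a circle, triangle and square for replicates 1, 2 and 3. In every gene shown the 2 days are separate, which the naming rule requires, and in S100a6, Krt20 and Anxa1 the open blue circle lies nearest to day 1.

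Most tested keratins and S100 genes and 6 of 12 annexins rose. These families build intermediate filaments, bind calcium and attach membranes to the cytoskeleton. Of 7 keratins tested 6 rose, with a list median of 1.95. Krt7, a simple-epithelium keratin, was at 32.5, 6.34 and 29.1 RPKM and then at 244, 375 and 343 (4.02 ± 0.61, adjusted p = 0.000506). Krt8 was at 732, 291 and 287 and then at 1160, 1850 and 1660, while the single keratin not called, Krt10, was at 0.975 to 1.71 RPKM. Of 9 S100 genes tested 6 rose (median 2.15) and of 12 annexins 6 rose (median 1.19), and none of either fell. S100a10, which partners annexin A2 at the membrane, was at 288, 148 and 153 RPKM and then at 731, 885 and 899 (2.15 ± 0.28, adjusted p = 0.000172). Anxa2 itself was at 140, 54.6 and 89.9 and then at 405, 807 and 728 RPKM (2.80 ± 0.39, adjusted p = 0.000277). S100a11 was at 25.2, 10.2 and 10.6 and then at 289, 424 and 326. Both partners were above their day 0 libraries in every library of day 1. Without d0r1 the counts were 6, 7 and 6. The lists hold 18 keratins and 15 S100 genes, of which 11 keratins and 6 S100 genes were not tested, and with no filter the medians of these lists were 0.12 and 1.31, with 1 S100 gene lower.

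Of 28 tested genes of actin and contractility, 12 rose, 1 fell and 15 did not pass (median 0.44). The higher count was 4 without d0r2, 4 without d0r3, 5 without d1r2, 4 without d1r3 and 14 without d0r1. Myl12b, a regulatory light chain of nonmuscle myosin, was at 105, 85.7 and 91.9 RPKM and then at 207, 211 and 236 (1.20 ± 0.13, adjusted p = 5.43e-05). Tagln2, an actin-bundling protein, was at 192, 137 and 158 and then at 477, 521 and 557 (1.68 ± 0.30, adjusted p = 0.0016). Cnn3, calponin 3, fell from 25.2, 33.6 and 38.1 to 14.3, 11.2 and 4.25 RPKM (adjusted p = 0.0237), a call lost without d0r2 (0.0693), d0r3 (0.0833) or d1r3 (0.12). Eps8, which caps and bundles the actin of microvilli, was at 16.6 to 18.4 RPKM and then at 28.1 to 31.5. Of 18 microvillus genes 6 rose and none fell, and 3 rose without any 1 of d0r2, d0r3, d1r2 or d1r3.

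**Figure D3:**
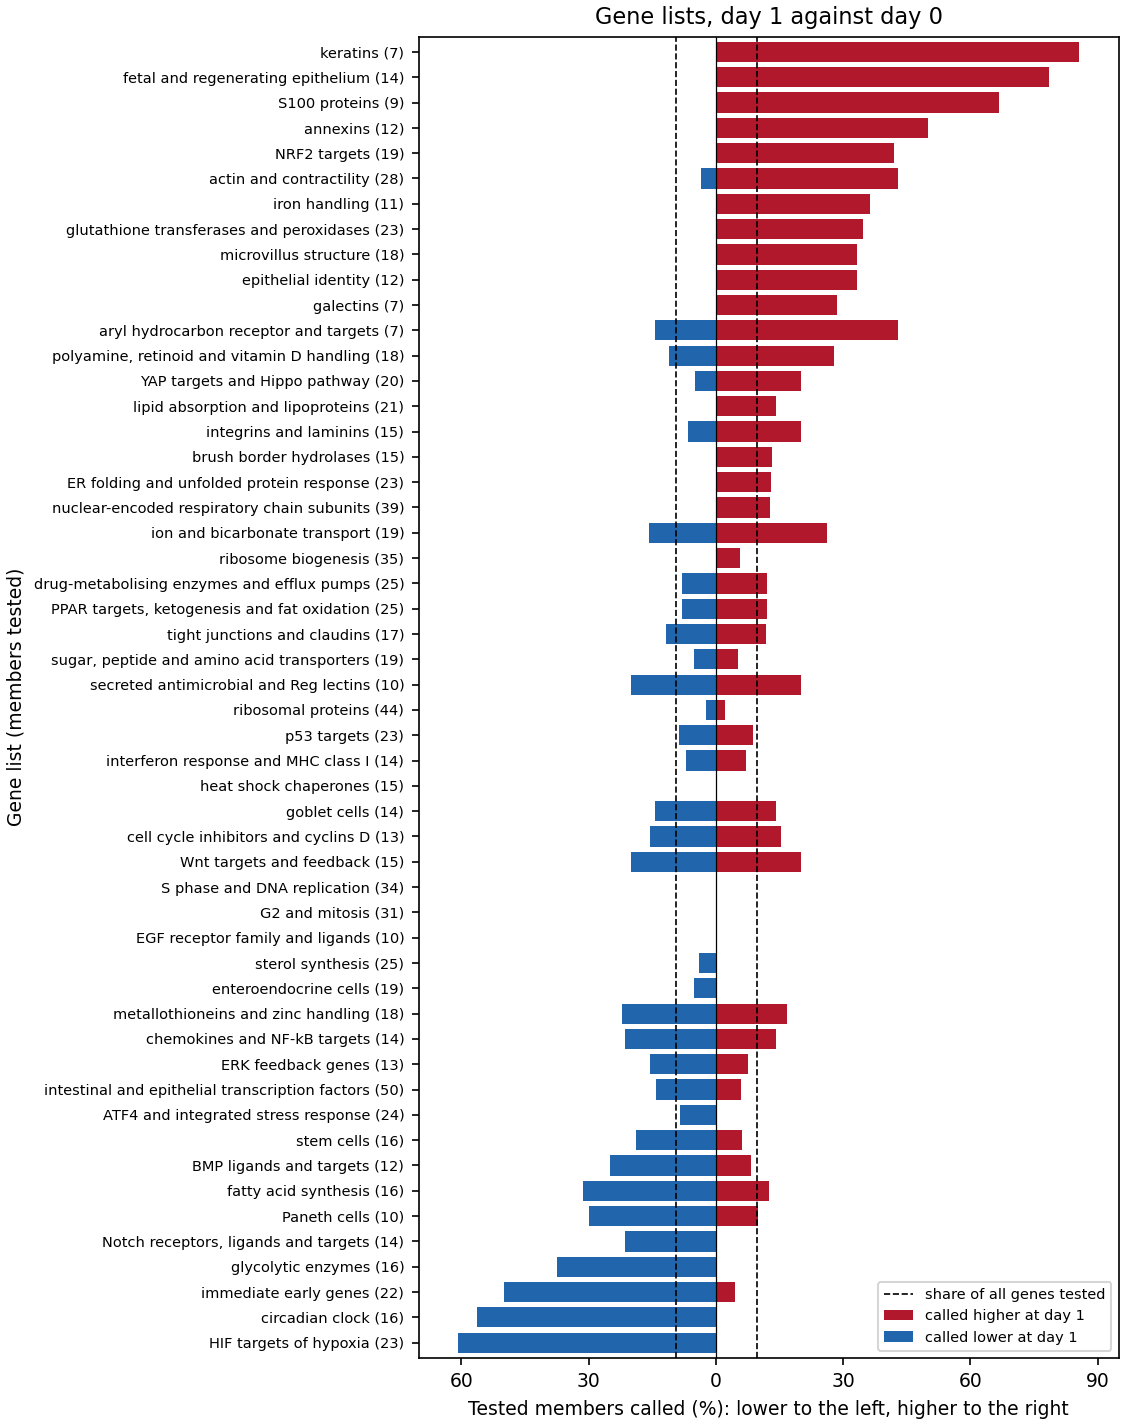
Share of the tested members of each gene list that were called higher (red, to the right) or lower (blue, to the left) at day 1, for lists with at least 7 tested members, given in brackets. Dashed lines mark the shares over all tested genes, 9.79% higher and 9.45% lower. Keratins and markers of fetal and regenerating epithelium have the longest red bars, HIF targets and circadian clock genes the longest blue bars, and heat shock, S phase, mitosis and EGF receptor genes have none.

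Cyp1a1 encodes a cytochrome P450 that clears planar aromatic compounds, and it is the textbook target of the aryl hydrocarbon receptor, which binds the xenobiotic response element. The window of 250 bases before its RefSeq start (GRCm38.p6, plus strand, chr9:57697363-57697612) is shown because Cyp1a1 had the third largest increase. Capitals mark the match to GCGTG, the core of that element, searched on both strands.
Cyp1a1: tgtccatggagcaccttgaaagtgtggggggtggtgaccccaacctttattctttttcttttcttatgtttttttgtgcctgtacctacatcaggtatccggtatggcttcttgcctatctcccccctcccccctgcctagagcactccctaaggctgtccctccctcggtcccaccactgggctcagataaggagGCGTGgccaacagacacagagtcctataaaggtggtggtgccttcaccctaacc
A match stood in 28.2% of all 32851 promoter windows of this length, in 44.0% of those of genes called higher and in 46.7% of those of genes not called.

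Cyp1a1 was at 0.581, 1.84 and 0.578 RPKM at day 0 and at 78.1, 194 and 154 at day 1 (6.12 ± 0.76, adjusted p = 0.000106). It then fell back day by day in its means, to 56.7 ± 34.9 (SD, n = 3) at day 2 and 0.669 ± 0.295 at day 5, and 2 of the 3 day 5 libraries lay within the range of day 0 with the other below it. The receptor gene Ahr was at 3.13 to 5.05 RPKM and then at 4.29 to 4.75 (adjusted p = 0.67), and Tiparp, another target, at 6.41 to 8.7 and then at 5.45 to 6.7 (0.439). Arnt, the partner of the receptor, was lower at day 1 (adjusted p = 0.0151), a call lost without d0r3 or d1r3. Of 7 genes of this list tested, 3 rose and 1 fell, and 5 rose with no filter. The members left out by the filter were low but higher in every day 1 library. Ahrr was at 0.0225 to 0.0663 RPKM and then at 0.514 to 1.19, and Cyp1b1 at 0 to 0.004 and then at 0.172 to 3.91. Cyp1a2 was at 0 to 0.0115 and then at 0.206 to 0.31, and Aldh3a1 at 0 and then at 0.141 to 0.344. Of 25 drug-metabolising enzymes and efflux pumps 3 rose and 2 fell, near the 9.79% and 9.45% of all tested genes, with 1 higher without d0r3 or d1r3 and 1 lower without d1r2.

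Of 19 targets of NRF2, the factor that answers oxidants, 8 rose and none fell (median 0.66). The count was 2 without d0r3 and 2 without d1r3. G6pdx, the first enzyme of the pentose phosphate pathway, which yields NADPH, was at 34.9, 36 and 33.7 RPKM and then at 70, 71 and 75.1 (1.03 ± 0.19, adjusted p = 0.00199). In this gene the spread within a day was far below the gap between the days. Txn1, thioredoxin, was at 346 to 405 and then at 493 to 542 RPKM without passing (adjusted p = 0.0951). Of 23 glutathione transferases, peroxidases and related genes, 8 rose and none fell, with counts of 5, 4, 5 and 3 without d0r2, d0r3, d1r2 and d1r3. Gss, glutathione synthetase, was at 66.7, 53.7 and 53.1 RPKM and then at 130, 152 and 159 (1.33 ± 0.15, adjusted p = 6.74e-05).

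Some iron transport genes rose. Slc46a1, a transporter of folate and heme, was at 3.31, 3.81 and 3.78 RPKM and then at 11.9, 30.3 and 44.8 (2.52 ± 0.47, adjusted p = 0.00216). Slc40a1, the iron exporter ferroportin, was at 0.818 to 1.42 and then at 5.49 to 6.47 RPKM, and Heph, the oxidase that works with it, at 6.56 to 9.82 and then at 20.1 to 30.3. Of 11 iron genes tested 4 rose and none fell, with 3 higher without d0r1. Tfrc, the transferrin receptor, was at 16.5, 99 and 77.1 RPKM and then at 79.9, 36.8 and 21.7, which overlap (adjusted p = 0.713).

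Mt1 and Mt2 are neighbouring genes for small proteins that bind zinc and copper, and metals induce them through the metal response element. Their windows of 250 bases before the RefSeq starts (GRCm38.p6, both on the plus strand, chr8:94178839-94179088 and chr8:94172368-94172617) are shown because they had the largest losses in RPKM. Capitals mark matches to TGCNCNC, the core of that element, on either strand.
Mt1: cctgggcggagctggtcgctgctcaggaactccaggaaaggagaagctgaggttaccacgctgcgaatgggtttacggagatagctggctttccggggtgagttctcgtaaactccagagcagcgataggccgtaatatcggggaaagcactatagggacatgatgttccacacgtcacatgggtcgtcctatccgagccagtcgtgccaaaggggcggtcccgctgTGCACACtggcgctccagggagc
Mt2: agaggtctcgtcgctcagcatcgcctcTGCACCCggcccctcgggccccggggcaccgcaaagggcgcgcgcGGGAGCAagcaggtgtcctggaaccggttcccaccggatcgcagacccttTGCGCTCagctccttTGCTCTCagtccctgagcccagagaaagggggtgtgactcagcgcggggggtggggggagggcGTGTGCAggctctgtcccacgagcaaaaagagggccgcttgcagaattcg
The Mt1 window held 1 match and the Mt2 window 5. Only these 250 bases before each RefSeq start were searched, so sites elsewhere at these genes are not counted. A match stood in 44.4% of all windows and at least 2 in 15.2%.

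Mt2 was at 1220, 2600 and 2120 RPKM at day 0 and at 88.5, 99.6 and 218 at day 1 (-3.91 ± 0.36, adjusted p = 2.3e-05). Mt1 was at 1160, 2580 and 2200 and then at 212, 230 and 344 (-2.87 ± 0.29, adjusted p = 4.41e-05). Both lay below every day 0 library in all 12 later libraries, and for both d0r1 was the lowest of its day. The 2 genes are close in sequence, and how reads that match both were counted is not given in the sources used here. Slc39a4, the zinc importer of the enterocyte surface, went the other way, from 18.9, 9.48 and 13.7 to 63, 74.4 and 90.9 RPKM (2.39 ± 0.27, adjusted p = 5.73e-05). Slc39a8, an importer of zinc and manganese, fell from 11.2, 17.2 and 13.3 to 3.78, 2.15 and 2.57 RPKM (-1.96 ± 0.33, adjusted p = 0.00112). Of 18 genes of metallothioneins and zinc handling, 3 rose, 4 fell and 11 did not pass (median 0.17), and these counts were the same without d0r1. That is 16.7% higher and 22.2% lower, against 9.79% and 9.45% of all tested genes.

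Many targets of the hypoxia factor HIF fell. This factor is kept low by prolyl hydroxylases where oxygen is present and binds the hypoxia response element. Of 23 tested targets 14 fell and none rose (60.9%, median -0.91). The count was 16 without d0r1, 9 without d0r2, 7 without d0r3, and 9 without either d1r2 or d1r3. The windows of 2 genes whose calls held under every alternative that tested them are shown. These are Bnip3 (GRCm38.p6, minus strand, chr7:138909507-138909756) and Ankrd37 (minus strand, chr8:45999851-46000100). Capitals mark ACGTG, the core of the element, on either strand. In Bnip3 the 2 matches overlap in 1 palindrome, and this core shares its last 4 letters with that of the xenobiotic element.
Bnip3: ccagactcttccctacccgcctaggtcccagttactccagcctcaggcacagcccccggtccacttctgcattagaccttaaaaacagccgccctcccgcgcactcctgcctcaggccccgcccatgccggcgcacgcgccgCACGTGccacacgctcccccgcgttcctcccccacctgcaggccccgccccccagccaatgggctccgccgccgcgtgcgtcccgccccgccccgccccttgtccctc
Ankrd37: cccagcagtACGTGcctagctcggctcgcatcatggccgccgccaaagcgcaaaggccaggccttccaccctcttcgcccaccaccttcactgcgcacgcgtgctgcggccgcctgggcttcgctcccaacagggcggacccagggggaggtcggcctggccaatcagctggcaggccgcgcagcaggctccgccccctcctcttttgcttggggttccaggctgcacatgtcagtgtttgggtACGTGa
A match stood in 17 of the 29 windows of genes on this list (58.6%) and in 16.6% of all windows, and in 21.5%, 21.1% and 22.7% of the windows of genes called higher, called lower and not called. The genes of the list are textbook targets of the factor, so these windows are not independent of the motif.

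Bnip3, which directs damaged mitochondria to breakdown, was at 6.32, 8.02 and 16 RPKM and then at 1.37, 0.656 and 1.51 (-2.28 ± 0.29, adjusted p = 0.000151). Kdm3a, a histone demethylase, was at 20, 27.2 and 31.6 and then at 6.45, 5.79 and 6.27 (-1.91 ± 0.20, adjusted p = 5.04e-05). Pdk1, a kinase of pyruvate dehydrogenase, was at 15, 22.9 and 33.9 and then at 9.98, 5.22 and 6.4 (-1.57 ± 0.28, adjusted p = 0.0014). In each of these genes replicate 3 was the highest and replicate 1 the lowest library of day 0. The glucose transporter Slc2a1 was at 11.4, 27 and 37.1 RPKM and then at 23.7, 26.4 and 24.8 (adjusted p = 0.845). At day 5 the mean of Bnip3 was again 7.53 ± 1.71 RPKM within the range of day 0, and that of Kdm3a 19.2 ± 5.29, just below its lowest day 0 library.

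Of 16 genes of glycolysis 6 fell and none rose (median -0.39), with 7 lower without d0r1 and 3 lower without d0r2, d0r3 or d1r1. Aldoc, an aldolase, was at 9.61, 10 and 19.1 RPKM and then at 1.28, 1.68 and 3.59 (-2.13 ± 0.37, adjusted p = 0.00122). Slc16a3, which exports lactate, was at 6.51, 20.5 and 54.1 and then at 1.6, 1.55 and 3.16 (-2.78 ± 0.61, adjusted p = 0.00526). The main lactate dehydrogenase gene Ldha was at 412 to 622 and then at 397 to 502 RPKM (adjusted p = 0.612). The aldolase most abundant of the list, Aldoa, fell with an adjusted p of 0.0424, and this call was lost under 10 of 20 alternatives.

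Immediate early genes, whose transcripts appear within minutes of a stimulus and decay as fast, fell in part. Of 22 tested 11 fell, 1 rose and 10 did not pass (median -0.86), and 11 fell without d0r1 as well. Egr2, a zinc finger factor, was at 5.55, 8.45 and 6.99 RPKM and then at 0.0438, 0.0838 and 0.0523 (-2.90 ± 0.12, adjusted p = 9.89e-10). Jun, a subunit of the AP-1 factor, was at 80, 82.1 and 73.6 and then at 5.18, 9.07 and 7.57 (-3.29 ± 0.31, adjusted p = 2.44e-05). Both stayed below every day 0 library through day 5. Fos, its partner, was at 300, 114 and 133 RPKM and then at 15.7, 38.3 and 36.9 (-2.52 ± 0.53, adjusted p = 0.00408). Fosl1, another partner, was at 1.82, 0.268 and 0.14 and then at 4.11, 10.9 and 4.15 (adjusted p = 0.0152), a call lost without d0r2 (0.0605), d0r3 (0.0683) or d1r2 (0.0756). Junb was at 28.2 to 67.6 and then at 24 to 41.7 RPKM (adjusted p = 0.59), and Jund at 31.7 to 51.1 and then at 36.2 to 43.9 (0.739).

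Of 16 tested circadian clock genes 9 fell and none rose (56.2%, median -0.89), with 10 lower without d0r1. Per2, a repressor of the clock, was at 9.3, 7.01 and 11 RPKM and then at 2.44, 3.3 and 3.07 (-1.34 ± 0.23, adjusted p = 0.00122). Tef, a clock output factor, was at 6.68 to 11.9 and then at 1.56 to 3.43 RPKM. The core activator Arntl was at 6.37 to 9.88 RPKM and then at 7.88 to 9.78 (adjusted p = 0.875). The labels give no hour of collection, so the time of day was not analysed here.

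The largest decreases also held genes of secretion, transport and translation control. Olfm4, a marker of crypt base stem cells, was at 125, 106 and 140 RPKM and then at 9.16, 5.33 and 0.783 (-4.67 ± 0.80, adjusted p = 0.00114). Ttr, the carrier of thyroid hormone and retinol-binding protein, was at 55.7, 30.6 and 40 and then at 1.41, 1.74 and 1.63 (-4.02 ± 0.29, adjusted p = 1.23e-06). Olfm4 was back at 446 ± 116 RPKM by day 5, while Ttr reached 9.27 ± 0.918. Pdcd4, which restrains translation by binding initiation factor 4A, was at 53.4, 65.9 and 52.7 RPKM and then at 7.2, 4.07 and 5.68 (-3.15 ± 0.36, adjusted p = 6.42e-05), and its mean was 51.5 ± 4.27 at day 5. Coq8a, an atypical kinase of coenzyme Q synthesis, was at 25.2, 27.5 and 22.1 and then at 4.19, 2.04 and 2.19 (-2.81 ± 0.44, adjusted p = 0.000637). Papln, an extracellular matrix protein, was at 21.4, 25.8 and 28.2 and then at 4.39, 3.35 and 1.94 (-2.66 ± 0.30, adjusted p = 5.65e-05). None of the 3 libraries of day 1 reached any of day 0 in these genes. Of 16 stem cell markers tested, 1 rose, 3 fell and 12 did not pass (6.25% and 18.8% called). The lower count was 6 without d0r1 and 1 without d0r2, d0r3 or d1r3. Of 10 Paneth cell markers tested, 1 rose and 3 fell (10.0% and 30.0%, against 9.79% and 9.45% of all tested genes). The 18 listed Paneth cell markers summed to 692 to 957 RPKM at day 0 and to 216 to 238 at day 1.

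**Figure D4:**
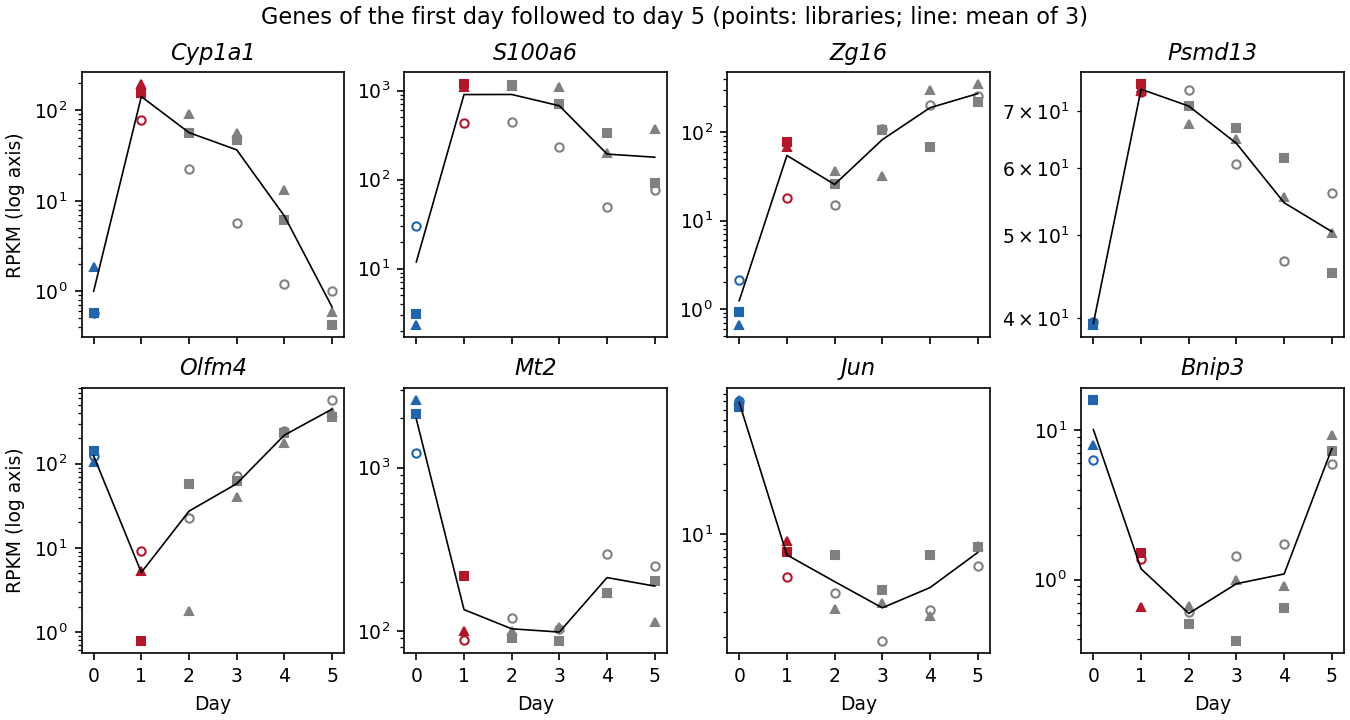
RPKM (y axis, log scale, own range for each gene) by day (x axis) for 8 genes. Points are single libraries, blue at day 0, red at day 1 and grey later, with circle, triangle and square for replicates 1, 2 and 3, and the line joins the means of 3. Cyp1a1 returns to 0.669 RPKM by day 5, Olfm4 rises past its day 0 level to 446, Bnip3 returns to 7.53, and Mt2 and Jun stay low.

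The day 1 state was in part kept and in part passing. Of the genes called higher, 407 (38.9%) lay above all 3 day 0 libraries in all 12 later libraries, against 13.7% of all tested genes with a positive change. Of those called lower, 498 (49.4%) stayed below, against 17.1%. Gsdmd, which forms membrane pores, was at 5.87, 2.37 and 4.48 RPKM at day 0, at 43.6, 66.9 and 87.5 at day 1 and at 70.7 ± 3.94 at day 5 (3.68 ± 0.42, adjusted p = 6.34e-05); it was chosen after its values were seen. Il18, a cytokine of barrier epithelium, was at 0.736 to 1.34 and then at 12.4 to 33.9 RPKM, with 41.2 ± 17.9 at day 5. Day 0 libraries are the reference of each of these courses, so they are not independent of the calls.

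Genes of signalling routes gave mixed counts, beside 9.79% higher and 9.45% lower over all tested genes. Of 15 Wnt targets and feedback genes 3 rose, 3 fell and 9 did not pass. The higher count was 0 without d0r1 or d1r3 and 1 without d0r3, d1r1 or d1r2, and the lower count was 1 without d0r2, d0r3, d1r2 or d1r3. Ccnd1, cyclin D1, was at 3.78, 3.29 and 10.9 RPKM and then at 35.9, 23.3 and 40.4 (2.42 ± 0.65, adjusted p = 0.0172), a call lost without d0r1 (0.0541), d0r2 (0.072) or d1r3 (0.0662), and in the DNase-treated libraries (0.0606). Axin2, a feedback inhibitor that Wnt signalling induces, was at 15.4, 35.1 and 37 RPKM and then at 23.6, 24.4 and 16.3 (adjusted p = 0.719). Library d0r1 was the lowest library of day 0 for both Axin2 and Lgr5. Of 12 BMP ligands and targets tested, 1 rose, 3 fell and 8 did not pass (median -0.59). Without d0r1 2 rose and 1 fell, and the lower count was also 1 without d1r2. Of 14 Notch genes 3 fell and none rose, with 3 lower without d0r1. Of 10 tested genes of EGF receptors and their ligands none was called by limma, 2 were higher and 2 lower at an unadjusted p under 0.05, and at most 3 were called higher and 2 lower in any alternative. Of 13 ERK feedback genes 1 rose and 2 fell (7.69% and 15.4%). Phlda1, a growth-factor-induced gene, was at 11.6, 17.8 and 15.6 RPKM and then at 44.4, 85.5 and 58.8 (1.97 ± 0.53, adjusted p = 0.0179), a call lost without d0r1 (0.0563), d1r2 (0.0748) or d1r3 (0.0516). Dusp4, a phosphatase of ERK, fell from 16.5, 19.9 and 20.6 to 8.92, 7.72 and 7.73 RPKM (-1.13 ± 0.24, adjusted p = 0.00494), and Spry2, an inhibitor of receptor signalling, from 10.3 to 10.8 down to 4.69 to 5.7.

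Proliferation genes gave no call. None of 34 tested genes of S phase and DNA replication and none of 31 of G2 and mitosis was called by limma, with medians of 0.14 for both. At an unadjusted p under 0.05, 1 gene of each list was higher and none lower. Over the alternatives at most 2 S phase genes and 1 mitotic gene were called higher, and at most 1 S phase gene lower. Pcna, the sliding clamp of DNA polymerase, was at 59.8 to 64.8 RPKM and then at 54.8 to 73 (adjusted p = 0.926), and Top2a, the topoisomerase of mitotic cells, at 76.6 to 91.8 and then at 65.7 to 95.6 (0.789). Among the inhibitors of the cycle, Cdkn1b, which encodes p27, was at 21.8, 16.6 and 16.2 RPKM and then at 11.2, 7.49 and 6.93 (-1.02 ± 0.25, adjusted p = 0.0106), a call lost without d1r3 (0.0538). Cdkn1a, which encodes p21, was at 136, 25 and 35 and then at 61.1, 70.1 and 94.7 (adjusted p = 0.438), with d0r1 far above the rest of its day.

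In lipid metabolism, the desaturase genes Fads1 and Fads2 fell and the elongase gene Elovl1 rose. Fads1, the delta-5 desaturase of polyunsaturated fatty acids, was at 59.8, 132 and 122 RPKM and then at 31.7, 22.3 and 14 (-2.15 ± 0.39, adjusted p = 0.00172). Its neighbour Fads2, the delta-6 desaturase, was at 54, 88.8 and 82.3 and then at 31.8, 22.1 and 19.1 (-1.59 ± 0.26, adjusted p = 0.000877). Elovl1, which elongates saturated very long chains, was at 43.3, 42.6 and 44.8 and then at 65.3, 73.8 and 75.6 (0.70 ± 0.12, adjusted p = 0.000961). The desaturase genes Scd1, at 99.9, 206 and 175 RPKM and then at 58.4, 50.7 and 78.2, and Scd2, at 295 to 632 and then at 250 to 331, did not pass (adjusted p = 0.0603 and 0.0693). Both passed without d0r1 (0.0407 and 0.00491). Of 16 genes of fatty acid synthesis 5 fell and 2 rose (31.2% and 12.5%, against 9.45% and 9.79% of all tested genes). The higher count was 1 without d0r3 or d1r3. The lower count was 7 without d0r1, 3 without d0r2, 2 without d0r3 and 3 without d1r2 or d1r3.

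Of 50 transcription factors of the epithelium 3 rose and 7 fell, against 9.79% and 9.45% of all tested genes. The higher count was 6 without d0r1, and the lower count was 4 without d0r3, d1r2 or d1r3. Gata5, a factor of mature intestinal epithelium, was at 5.66, 4.25 and 4.19 RPKM and then at 11.1, 14.6 and 14.8 (1.35 ± 0.21, adjusted p = 0.000637). Batf2, a basic leucine zipper factor, was at 1.24, 0.151 and 0.302 and then at 3.91, 7.53 and 9.91 (2.36 ± 0.35, adjusted p = 0.000408). Klf7 was at 3.23 to 4.05 and then at 0.948 to 1.13 RPKM (-1.14 ± 0.18, adjusted p = 0.000737). Cdx1, a homeobox factor that sets intestinal identity, was at 98.9 to 103 and then at 84.7 to 110 (0.888).

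Some families of housekeeping complexes moved as blocks of small changes. They were picked by gene symbol after the values were seen, and members were named after their values were seen. Of 38 proteasome subunits, which form the particle that degrades tagged proteins, 27 rose and none fell (71.1%, median 0.58), and 36 had a positive change. The count was 17 without d0r2, and 19 without d0r1. Psmd13, a subunit of the regulatory lid, was at 39.6, 39.2 and 39.3 RPKM and then at 73.6, 73.9 and 75.2 (0.90 ± 0.12, adjusted p = 0.000185). Psmc1, an ATPase of the base, was at 46.9, 48.3 and 47.3 and then at 83.7, 88.4 and 97 (0.90 ± 0.14, adjusted p = 0.000642). The catalytic subunits of the immunoproteasome did not pass, Psmb8 being at 1.31 to 3.18 and then at 1.63 to 2.64 RPKM (adjusted p = 0.8) and Psmb9 at 3.09 to 7.54 and then at 2.94 to 5.85 (0.518).

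Of 76 mitochondrial ribosomal proteins 32 rose and none fell (42.1%, median 0.43), and the count was 10, 15, 18, 13, 13 and 14 without d0r1, d0r2, d0r3, d1r1, d1r2 and d1r3. Mrpl20 was at 63.5, 65.9 and 64.3 RPKM and then at 141, 140 and 143 (1.12 ± 0.16, adjusted p = 0.000305). Of 44 cytosolic ribosomal proteins 1 was higher and 1 lower, with a median of -0.24. The lower count was 0 when any 1 of the 6 libraries was left out, the higher count was 0 without any 1 except d1r3, and array weights gave 3 higher and 15 lower. The difference between the 2 kinds of ribosome was not tested. Of 12 genes of the Arp2/3 complex and of actin capping, which nucleate and end actin filaments, 7 rose and none fell, and 9 rose without d0r1. Arpc2 was at 126, 93.1 and 95.2 RPKM and then at 183, 180 and 213 (0.88 ± 0.16, adjusted p = 0.00151). Of 246 zinc finger genes with a Zfp symbol, many of them repressors of transcription, 55 fell and 2 rose (22.4% and 0.813%, median -0.28), with 26, 29, 32 and 25 lower without d0r2, d0r3, d1r2 and d1r3 and 43 lower without d0r1. Zfp395 was at 13.2, 10.9 and 14.9 and then at 3.66, 2.42 and 2.63 RPKM (-1.85 ± 0.19, adjusted p = 4.41e-05). Of 55 genes of histone and DNA modifying enzymes 15 fell and none rose (27.3%), with 8 lower without d0r2 and 7 without d1r3. Kmt2e, of the histone methyltransferase family, was at 12.3, 13 and 13.5 and then at 7.11, 6.22 and 6.11 RPKM (-0.90 ± 0.21, adjusted p = 0.00897).

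Gene length and level differed between these families. Among the 25% of tested genes with the shortest summed exons, 17.3% were called higher and 7.32% lower, and among the longest 4.46% and 12.1%. Within means of 20 to 100 RPKM, 24.2% of the shortest and 9.55% of the longest rose. The median deviation of the shortest genes from their mean over the 6 libraries was -0.14, -0.08 and -0.02 in the day 0 libraries and 0.08, 0.08 and 0.05 in those of day 1. The median summed exon length was 2814 bases for the proteasome, 2394 for the mitochondrial ribosome, 4776 for the zinc finger genes and 6795 for the modifying enzymes. In the same order the median level was 59.1, 31.0, 3.43 and 6.71 RPKM. Of all tested genes with a mean under 5 RPKM, 4.42% rose and 15.0% fell. These shares were 8.13% and 8.44% at 5 to 20 RPKM, and 17.5% and 5.01% at 20 to 100 RPKM. The part of length or level in the counts of these families was not tested.

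**Figure D5:**
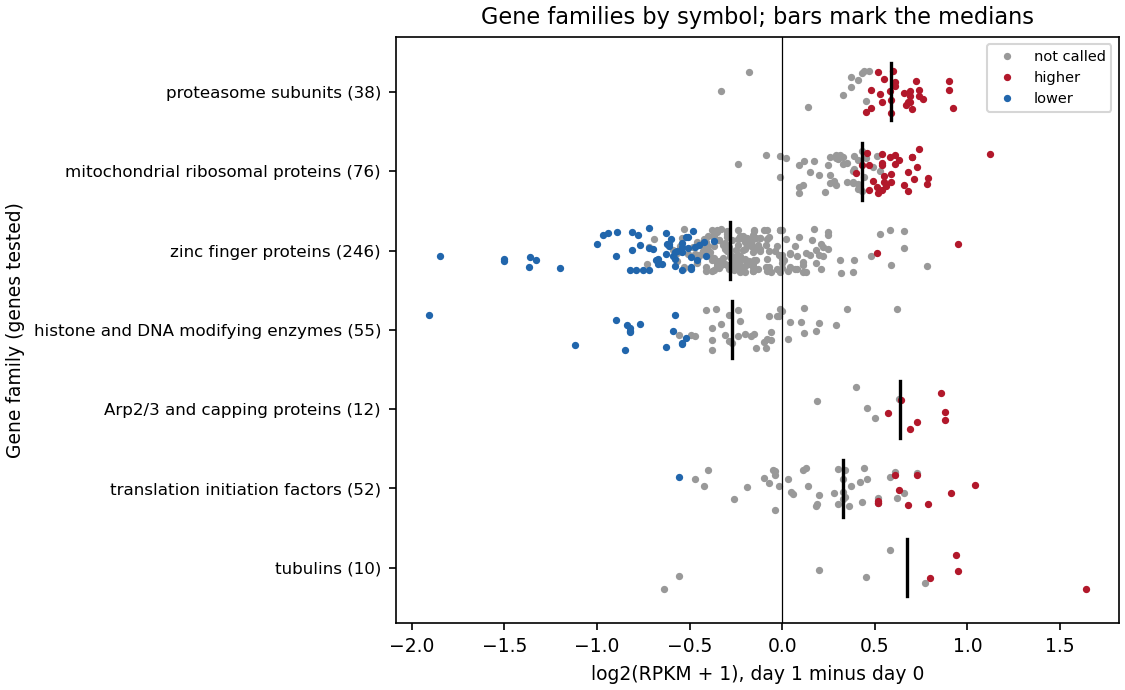
Change in log2(RPKM + 1) from day 0 to day 1 (x axis) for each tested gene of 7 families (y axis, number tested in brackets). Red points are called higher, blue lower and grey not called, vertical spread within a row carries no value, and black bars mark the medians. The proteasome lies almost wholly to the right of 0, with a median of 0.58, and most zinc finger genes lie to the left, with a median of -0.28.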

How the data were processed

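RNA-seq of 18 libraries was used, with 3 per day for 6 days. The deposited values are RPKM per gene, with genome build mm10. Per the submitters' processing notes bcl2fastq 2.17, STAR 2.5.2b and edgeR 3.20.5 were used, with no role stated. The annotation, the use of strand and the handling of multi-mapping reads were named by no label or header. Depth was recovered from low values that are whole multiples of 1 read. No per-sample column was left unused.

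Values were transformed as log2(RPKM + 1), which understates changes of low genes. Genes with at least 1 RPKM in 3 of the 6 libraries of days 0 and 1 were tested with limma 3.58.1 in R 4.3.3 (lmFit, eBayes with a trend). All 18 libraries entered 1 fit with a coefficient per day, which gives a shared spread. Two-sided p-values from limma were adjusted over 10669 genes by Benjamini-Hochberg. Genes with an adjusted value under 0.05 were called. By the titles the day 0 libraries come from 3 mice and those of day 1 from 2, so p-values measure in part the spread between libraries of 1 mouse. In simulated data for this comparison, run on 10669 genes, limma called 62 of 100 genes changed by 1 on the log2 scale and 94 of 100 changed by 2, with 7 false calls. The simulated noise was normal, independent and of equal spread over the libraries of a gene. Deviating libraries such as d0r1 and shared mice were left out, so these rates need not hold for the data.

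The comparison, the members and the 59 gene lists were chosen with earlier results of these data known. Named genes were the 15 largest log2 changes each way and the 5 largest RPKM changes each way among called genes whose 2 days did not overlap and whose higher mean reached 5 RPKM, without pseudogenes and predicted names. To these were added, from each list described, up to 6 called members by size of change and up to 3 members not called by level. Names outside this rule, in the symbol families and elsewhere, were picked with their values in view. The main fit did not pair libraries by replicate number, although by the titles some libraries with the same number share a mouse. Promoter windows came from RefSeq, GRCm38.p6, and 8529 tested genes matched. Coordinates came from RefSeq through Entrez numbers, of which 24061 matched. Exon lengths were known for 96.7% of tested genes. There were 20 alternatives, of which leaving out day 4 was chosen after seeing the data.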

Additional observations from a re-analysis of the deposited data

How the results depend on the processing

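No gene named and called changed direction in any of the 20 alternatives. Of 204 such genes, 100 kept the call in every alternative that tested them and 104 lost it in at least 1. Genes that the filter at 5 RPKM left out were not judged there. Of 155 named genes not called, 64 came past the threshold in at least 1. Array weights gave 2081 higher and 2201 lower genes, against 1045 and 1008. A filter at 5 RPKM left 7600 genes and gave 562 lower, 210 of them by at least 2-fold, and 929 higher, so that 62.3% of calls were higher against 50.9%. Leaving out each replicate in turn gave 598 to 935 higher and 605 to 945 lower genes. The replicate block with 18 libraries gave 1195 higher and 1239 lower, and with only the 6 libraries of both days 718 and 740, against 1183 and 1062 for those libraries without it. By the titles replicates 1 and 3 share a mouse over the 2 days and replicate 2 does not, so the main fit has no block. Deviations of libraries with the same number correlated at -0.075, 0.09 and -0.224 for replicates 1, 2 and 3. With 3 libraries per day, whose deviations sum to 0, this cannot show whether libraries of 1 mouse are alike. With no filter 17647 genes were tested and 42.8% of calls were higher. The other settings kept both counts within 1.5 times. Some settings use other numbers of genes or libraries, and the causes of the differences in counts were not tested. The log2(RPKM + 1) scale and the filter limit what can be seen of genes below 1 RPKM.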

Other observations

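Of 18 genes of polyamine, retinoid and vitamin D handling 5 rose, 2 fell and 11 did not pass. That is 27.8% higher and 11.1% lower, against 9.79% and 9.45% of all tested genes. The higher count was 2 without day 0 replicate 2 and 3 without any 1 of day 0 replicate 3 and the 3 libraries of day 1, and the lower count was 1 without replicate 2 or 3 of day 0 or replicate 2 of day 1. Rdh10, which makes retinal from retinol, was at 16.7, 12.7 and 10.1 RPKM at day 0 and at 40, 61.8 and 44.1 at day 1 (log2 change 1.81 ± 0.27, adjusted p = 0.000468, limma). Vdr, the vitamin D receptor, fell from 60.6, 129 and 95.7 to 31.3, 23.3 and 35.9 RPKM (-1.58 ± 0.43, adjusted p = 0.0186), a call lost without day 0 replicate 2 (0.0853), day 0 replicate 3 (0.0593) or day 1 replicate 2 (0.0736). Aqp1, a water channel, was at 82.1, 169 and 117 and then at 44.3, 21.7 and 17.4 RPKM (-2.15 ± 0.42, adjusted p = 0.00266), while Ano1, a calcium-gated chloride channel, was at 0.725, 0.0135 and 0.0662 and then at 10.8, 13.7 and 7.81 (3.23 ± 0.67, adjusted p = 0.00385). Cxcl16, a chemokine, was at 5.2, 0.347 and 1.02 and then at 16.1, 31.4 and 24.8 RPKM (3.24 ± 0.57, adjusted p = 0.0014). Bmp8b, a BMP ligand, was at 0.112 to 0.236 and then at 3.53 to 5.34 RPKM.

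Of 193 long noncoding RNAs tested, 6 were higher and 34 lower (17.6%), and among 10255 protein-coding genes 1029 were higher and 963 lower (9.39%). Among all tested genes with a mean under 5 RPKM, 4.42% were higher and 15.0% lower. Long noncoding RNAs and protein-coding genes were not matched by level, and the part of level in this contrast was not tested. The small RNA entry Mir6236 was at 3000.0, 226 and 332 RPKM in the day 0 libraries. In those of day 1 it was at 666, 127 and 146. On every day of the course the DNase-untreated library was the highest. Of 70 groups of genes that share the first 3 letters of their symbol and hold at least 20 tested genes, Psm had the highest share called higher (58.3%) and Mrp the next (42.1%).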
